A study of Rattus norvegicus with 8 samples.

Results

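Spp1, Lcn2, Havcr1, Clu, Cd44, Vcam1, Icam1, Cldn1, Pax8 and Anxa1 are 10 genes that mark kidney injury or the activation of renal epithelium. They were described in glomerular RNA of Dahl and SHR rats, as 10 of the 14217 genes named on the array. All 15 probe sets annotated to these symbols were taken, and each gene was read from its brightest probe set, by the mean of the 8 arrays. No member was left out, and no filter on low values was applied.

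The Dahl rat is a salt-sensitive strain that develops hypertension and proteinuria spontaneously, and the SHR is a spontaneously hypertensive strain without proteinuria. Isolated glomeruli of Dahl and SHR rats, each aged 4 or 6 weeks, were measured, with 2 arrays in each of the 4 groups. The titles number the arrays as biological replicates without saying whether glomeruli were pooled, and each array is taken here as 1 rat. Per the study's methods the rats were male and received a low-salt diet, so no group differed from another by a treatment. The paper reports that hypertension began in both strains only after the ages measured here. Dahl proteinuria began, per the paper, at the older of these ages, so the younger age preceded it. The SHR, of another genetic background, was the only strain to set the Dahl rat against. The p-values rest on the spread between the 2 replicates of a group, estimated jointly over all 4 groups. A comparison at a single age therefore also draws on the arrays of the other age.

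When the tubular or glomerular epithelium is injured, cells start to make secreted proteins such as osteopontin, lipocalin 2 and clusterin, several of which are measured in urine or plasma as injury markers. Injured and cytokine-exposed endothelium and epithelium also display adhesion molecules of the immunoglobulin superfamily, which leukocyte integrins bind. In the glomerulus, the parietal cells that line Bowman's capsule express claudin-1 and PAX8 in health and acquire CD44 when they are activated.

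Values are log2 intensities, so a difference of 1 is a doubling of signal. The median over probe sets lay between 4.107 and 4.165 in the 8 arrays, and the correlation over all probe sets was 0.9893 to 0.9968 within groups and 0.9501 to 0.9942 between groups. The podocyte genes Nphs1, which encodes nephrin, and Wt1, a transcription factor of podocytes, were bright in every array, at 11.84 to 12.65 and 10.82 to 11.28. The proximal tubule transporter Slc34a1 was bright too, between 12.15 and 13.79. In whole glomeruli, fewer cells of a type and less RNA per cell cannot be told apart.

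The promoters of Lcn2, Vcam1 and Icam1 are printed because these genes carried a match to the kappaB motif, the site type bound by NF-kappaB, or to TTCNNNGAA, the site type bound by STAT factors. Each line holds the 250 bases before the RefSeq transcription start on rat assembly GRCr8, read 5′ to 3′ on the strand of the gene, with kappaB and TTCNNNGAA matches in capitals.
Lcn2 promoter, chr3:36081781-36082030, minus strand: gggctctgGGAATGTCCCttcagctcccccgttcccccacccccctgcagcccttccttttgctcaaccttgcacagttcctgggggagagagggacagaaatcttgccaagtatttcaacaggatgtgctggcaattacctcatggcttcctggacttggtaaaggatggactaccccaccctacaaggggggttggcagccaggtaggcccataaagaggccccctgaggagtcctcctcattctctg
Vcam1 promoter, chr2:206742784-206743033, minus strand: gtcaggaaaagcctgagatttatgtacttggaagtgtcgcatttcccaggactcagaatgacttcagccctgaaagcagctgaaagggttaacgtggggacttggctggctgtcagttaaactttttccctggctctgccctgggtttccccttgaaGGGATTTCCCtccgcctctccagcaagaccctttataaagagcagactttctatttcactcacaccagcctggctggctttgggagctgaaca
Icam1 promoter, chr8:27829595-27829844, plus strand: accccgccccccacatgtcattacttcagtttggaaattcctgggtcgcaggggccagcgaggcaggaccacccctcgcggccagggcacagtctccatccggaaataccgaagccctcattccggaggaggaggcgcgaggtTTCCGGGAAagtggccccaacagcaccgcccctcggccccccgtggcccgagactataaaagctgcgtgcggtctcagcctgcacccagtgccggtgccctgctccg

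The RefSeq promoter table held 9 of the 10 genes, all but Clu. The kappaB motif was found in 2 of 9, Lcn2 at −242 to −233 on the antisense strand and Vcam1 at −93 to −84 on both strands, and in 6.33% of all 33469 promoters of the same length. TTCNNNGAA was found in 1 of 9, Icam1 at −107 to −99, and in 7.67% of all promoters. TTNNGCAA, a C/EBP-type motif, lay in Lcn2, Havcr1, Pax8 and Anxa1 and in 9.22% of all promoters. TATAAA lay in Spp1, Vcam1, Icam1 and Anxa1 and in 12.9% of all, and the 2 matches of Vcam1 overlap each other. The Spp1 match was far from the start, at −204 to −199, and those of Vcam1, Icam1 and Anxa1 lay between −62 and −41. TGANTCA, an AP-1-type motif, was in 0 of 9 and in 6.34% of all promoters. The kappaB motif was searched as GGGRNNYYCC, where R is A or G, Y is C or T and N is any base. Sites that depart from this pattern were not counted, so a gene without a match may still hold such a site. Both strands were searched for each motif, and a match describes letters, not binding.

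**Figure D1:**
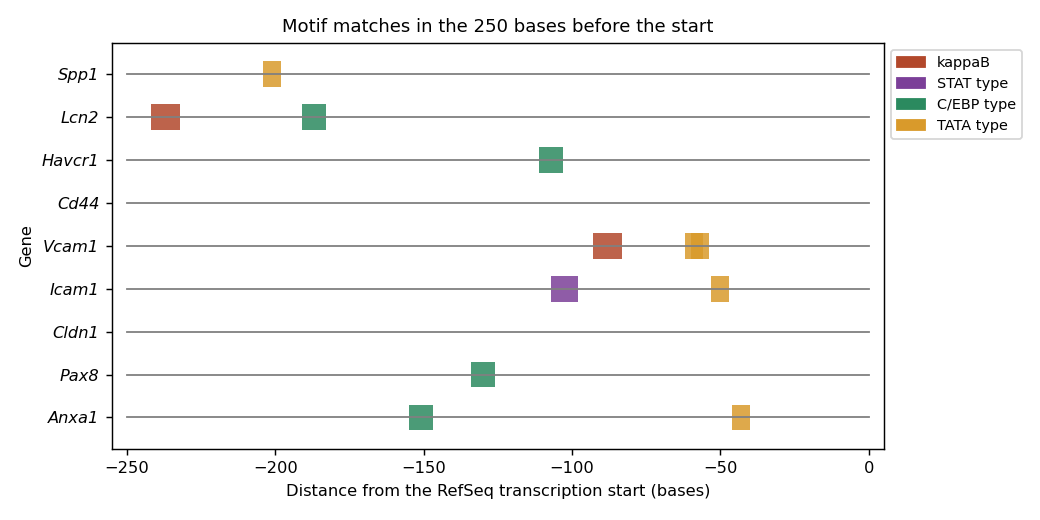
Motif matches in the 250 bases before the RefSeq start of the 9 genes in the promoter table, by distance from the start in bases; each coloured block is 1 match. Lcn2 and Vcam1 carry a match to the kappaB pattern searched, Icam1 carries a match to the STAT-type pattern, and Cd44 and Cldn1 carry no match to the patterns searched.

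Spp1 encodes osteopontin, a secreted phosphoprotein that binds integrins and CD44. Its level was 10.96 and 11.40 in Dahl rats of 4 weeks and 11.59 and 12.01 in Dahl rats of 6 weeks, against 8.73 and 9.02 in SHR rats of 4 weeks and 9.89 and 9.75 in SHR rats of 6 weeks. All 4 Dahl rats lay above all 4 SHR rats, with more than 1 log2 unit between the lowest Dahl rat and the highest SHR rat. Spp1 averaged 11.49 ± 0.436 in Dahl rats and 9.35 ± 0.558 in SHR rats (SD, n = 4 each, both ages). The difference over both ages was 2.14 (SE 0.157, 95% interval 1.74 to 2.55), or 4.42-fold (limma adjusted p = 0.00533), and it exceeded that of 99.7% of the genes. At 4 weeks Spp1 was 4.94-fold higher in Dahl rats (difference 2.30, limma adjusted p = 0.0106), and at 6 weeks 3.95-fold (difference 1.98, limma adjusted p = 0.0306). Spp1 was the member with the largest strain difference at either age, and the only one that passed the test at 6 weeks.

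Lcn2 encodes lipocalin 2, or NGAL, which binds bacterial siderophores and is released by injured tubules and neutrophils. It measured 8.51 and 8.61 in Dahl rats of 4 weeks and 8.89 and 9.51 in Dahl rats of 6 weeks, against 7.37 and 7.08 in SHR rats of 4 weeks and 8.33 and 8.56 in SHR rats of 6 weeks. The Dahl rats were higher at each age, but the strains overlapped across ages, since 1 SHR rat of 6 weeks lay above 1 Dahl rat of 4 weeks. Over both ages Lcn2 was 2.07-fold higher in Dahl rats (difference 1.05, SE 0.166, limma adjusted p = 0.0179). The difference was 1.33 at 4 weeks (limma adjusted p = 0.0331) and 0.76 at 6 weeks (95% interval 0.16 to 1.37, limma adjusted p = 0.116).

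Clu encodes clusterin, a secreted chaperone that is made by stressed and injured cells. Its level was 10.24 and 10.44 in Dahl rats of 4 weeks and 10.75 and 11.03 in Dahl rats of 6 weeks, against 9.45 and 8.92 in SHR rats of 4 weeks and 9.92 and 9.97 in SHR rats of 6 weeks. The strains did not overlap, though the SHR rats of 6 weeks came close to the Dahl rats of 4 weeks. Clu was 2.07-fold higher in Dahl rats over both ages (difference 1.05, SE 0.143, limma adjusted p = 0.0135). It passed the test at 4 weeks (difference 1.15, limma adjusted p = 0.0328) but not at 6 weeks (difference 0.94, 95% interval 0.42 to 1.46, limma adjusted p = 0.0736). A second Clu probe set was dim in all arrays, at 2.05 to 2.14, and gave a difference of 0.0097 between strains.

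**Figure D2:**
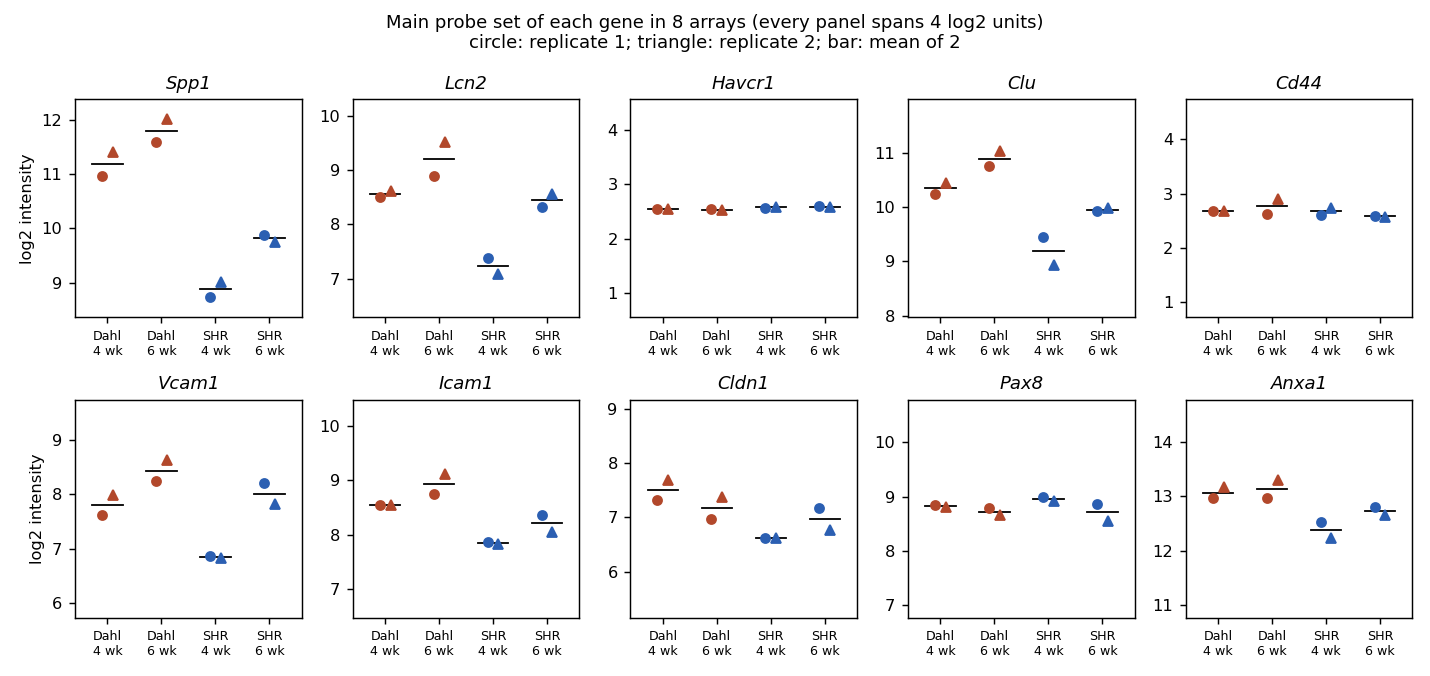
Log2 intensity (vertical axis) of the main probe set of each of the 10 genes in the 8 arrays, with the groups side by side; a circle or triangle is 1 rat (replicate 1 or 2) and a bar is the mean of both. Spp1, Clu, Icam1 and Anxa1 have all 4 Dahl rats above all 4 SHR rats, while Havcr1 and Cd44 stay below 3 in every array.

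Vcam1 and Icam1 encode endothelial and epithelial adhesion receptors that bind leukocyte integrins. Vcam1 measured 7.63 and 7.99 in Dahl rats of 4 weeks and 8.24 and 8.62 in Dahl rats of 6 weeks, against 6.87 and 6.83 in SHR rats of 4 weeks and 8.20 and 7.81 in SHR rats of 6 weeks. The Dahl rats of 4 weeks averaged 7.81, against 6.85 in the SHR rats of 4 weeks, the lowest group, and the SHR rats of 6 weeks overlapped the Dahl rats of 4 weeks. Over both ages Vcam1 was 1.61-fold higher in Dahl rats (difference 0.69, SE 0.148, limma adjusted p = 0.0312). Neither age alone passed, with differences of 0.95 at 4 weeks (limma adjusted p = 0.051) and 0.43 at 6 weeks (95% interval −0.11 to 0.97, limma adjusted p = 0.202).

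Icam1 measured 8.55 and 8.54 in Dahl rats of 4 weeks and 8.75 and 9.12 in Dahl rats of 6 weeks, against 7.87 and 7.82 in SHR rats of 4 weeks and 8.37 and 8.05 in SHR rats of 6 weeks. All Dahl rats lay above all SHR rats, and the strain difference was of similar size at both ages. It was 0.71 over both ages, or 1.64-fold (SE 0.112, limma adjusted p = 0.0177), 0.70 at 4 weeks (limma adjusted p = 0.0546) and 0.73 at 6 weeks (limma adjusted p = 0.0751).

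Cd44 and Havcr1 gave little signal. Cd44 encodes the hyaluronan receptor that is also a receptor for osteopontin. Its main probe set was at 2.68 and 2.69 in Dahl rats of 4 weeks and 2.64 and 2.90 in Dahl rats of 6 weeks, against 2.62 and 2.74 in SHR rats of 4 weeks and 2.60 and 2.57 in SHR rats of 6 weeks. Strains overlapped, and the difference of 0.10 (95% interval −0.08 to 0.27) did not pass (limma adjusted p = 0.278). The second probe set lay between 2.18 and 2.56 in 7 arrays and at 3.62 in Dahl 6 weeks replicate 2. Of all probe sets, 27.3% were as dim as the main Cd44 probe set or dimmer.

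Havcr1 encodes KIM-1, a phosphatidylserine receptor of injured proximal tubule cells. It lay between 2.53 and 2.56 in Dahl rats and between 2.57 and 2.60 in SHR rats, a level that 23.7% of all probe sets did not exceed. All Dahl rats were below all SHR rats by a very small margin, with a difference of −0.040 (95% interval −0.08 to 0.0006, limma adjusted p = 0.0973) that turned to 0.033 with quantile normalization and passed as lower with trend and robust variance and with median centring (limma adjusted p = 0.0403 and 0.0436). At this signal a change in Cd44 or Havcr1 that stayed near background would not have been detectable.

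Cldn1 and Pax8 are genes of the parietal epithelium. Cldn1 encodes the tight junction protein claudin-1 and measured 7.32 and 7.68 in Dahl rats of 4 weeks and 6.97 and 7.37 in Dahl rats of 6 weeks, against 6.63 and 6.63 in SHR rats of 4 weeks and 7.17 and 6.76 in SHR rats of 6 weeks. The Dahl rats of 4 weeks were the highest group, and at 6 weeks the strains overlapped. Over both ages the difference of 0.54 (95% interval 0.14 to 0.93) missed the threshold (limma adjusted p = 0.0502). It passed with trend and robust variance, with median centring and among brighter probe sets (limma adjusted p = 0.0308 to 0.0407). With quantile normalization it did not pass (0.47, limma adjusted p = 0.103). The main difference was 0.87 at 4 weeks (limma adjusted p = 0.0657) and 0.20 at 6 weeks (limma adjusted p = 0.506). The other 2 Cldn1 probe sets gave 0.40 and 0.52 over both ages (limma adjusted p = 0.168 and 0.134).

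Pax8 encodes a transcription factor of the nephron lineage. Its main probe set was at 8.84 and 8.81 in Dahl rats of 4 weeks and 8.79 and 8.66 in Dahl rats of 6 weeks, against 8.99 and 8.93 in SHR rats of 4 weeks and 8.87 and 8.56 in SHR rats of 6 weeks. The difference was −0.06 over both ages (95% interval −0.27 to 0.14, limma adjusted p = 0.552), and the strains overlapped. A dimmer Pax8 probe set ran differently, with 6.30 and 6.09 in Dahl rats of 6 weeks against 5.89 and 5.65 in SHR rats of 6 weeks. It did not pass at 6 weeks (difference 0.42, limma adjusted p = 0.0984) or for the interaction (0.57, limma adjusted p = 0.278).

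Anxa1 encodes annexin A1, a phospholipid-binding protein that limits leukocyte recruitment. It was the brightest member probe set by signal, with 12.96 and 13.17 in Dahl rats of 4 weeks and 12.98 and 13.31 in Dahl rats of 6 weeks, against 12.53 and 12.23 in SHR rats of 4 weeks and 12.80 and 12.65 in SHR rats of 6 weeks. The strains did not overlap, although the nearest rats of the 2 strains were close. Anxa1 was 1.47-fold higher in Dahl rats over both ages (difference 0.55, SE 0.116, limma adjusted p = 0.0302), with 0.69 at 4 weeks (limma adjusted p = 0.0609) and 0.42 at 6 weeks (limma adjusted p = 0.15).

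Over both ages 6 of the 10 genes were higher in Dahl rats and 0 were lower at a limma adjusted p under 0.05, while 13.2% of the 14217 genes were higher and 21.2% lower. Among genes brighter than the median probe set, 19.1% were higher and 12.9% lower. The median difference of the 10 genes was 0.622, against −0.0482 over all genes. At 4 weeks 3 of 10 passed as higher, Spp1, Lcn2 and Clu, where 7.88% of genes did, and the median was 0.786. At 6 weeks 1 of 10 passed, where 1.62% of genes did, and the median was 0.422. The strains did not overlap with Dahl rats above in 4 of 10 genes (9.35% of all genes) and with Dahl rats below in 1 of 10, Havcr1 (33.5% of all genes).

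**Figure D3:**
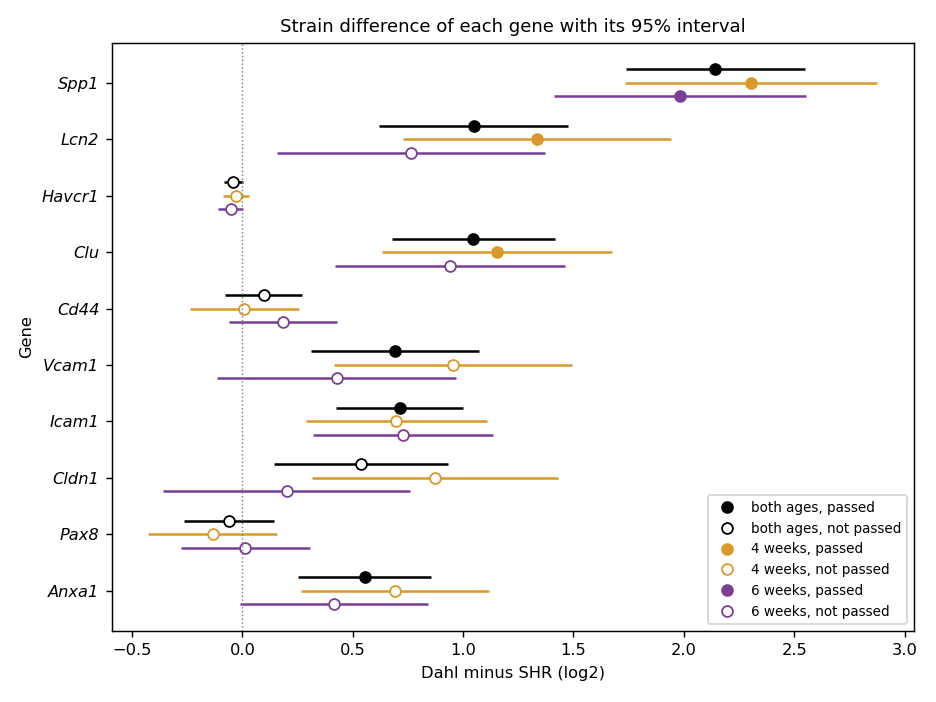
Dahl minus SHR difference (log2, horizontal axis) of the main probe set of each gene for the ages combined and for each age alone; lines are 95% intervals and filled points passed a limma adjusted p under 0.05. Over both ages 6 genes passed, with Spp1 the farthest to the right at 2.14.

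The calls depended on which arrays were in the fit. Dahl 6 weeks replicate 2 was the highest of the 8 arrays in 7 of the 10 genes, among them all 6 that passed, as it was in 22.7% of all genes. Without it, Spp1 (difference 2.04), Lcn2 (0.89), Clu (0.98) and Icam1 (0.62) passed over both ages. Vcam1 (0.60, limma adjusted p = 0.0725) and Anxa1 (0.47, limma adjusted p = 0.0671) did not, nor did Spp1 at 6 weeks (1.77, limma adjusted p = 0.0937). Leaving out each array in turn gave between 1 and 8 passing genes over both ages, while 7.36% to 37% of all probe sets passed. Spp1 passed over both ages in all 8 of these fits, with differences of 2.03 to 2.25. Spp1 and Clu were the genes that passed without Dahl 4 weeks replicate 2 and again without SHR 4 weeks replicate 2. Spp1 and Icam1 passed without SHR 6 weeks replicate 1, and Spp1 alone without SHR 6 weeks replicate 2.

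The calls at a single age depended on single arrays too. At 6 weeks Spp1 no longer passed without Dahl 6 weeks replicate 2 or without any 1 of the 4 SHR arrays, although its difference stayed between 1.77 and 2.20 (limma adjusted p up to 0.12). At 4 weeks Spp1 was the only gene that passed without Dahl 4 weeks replicate 1, Dahl 4 weeks replicate 2, SHR 4 weeks replicate 2, SHR 6 weeks replicate 1 or SHR 6 weeks replicate 2. The differences at 4 weeks stayed between 1.19 and 1.48 for Lcn2 and between 0.89 and 1.42 for Clu.

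The age comparison placed 5 genes higher at 6 than at 4 weeks in each strain without passing its test. In Spp1, Lcn2, Clu, Vcam1 and Icam1 both rats of 6 weeks lay above both rats of 4 weeks, in Dahl and in SHR alike, a pattern that 7.3% of all genes had. None of the 10 genes passed the test for age. In Dahl rats 0 of 10 passed, where 0.0985% of genes did, and in SHR rats 0 of 10 passed, where 3.42% did. At an unadjusted limma p under 0.05 there were 4 of 10 in each strain. The share of all genes at that unadjusted threshold was not counted, so these 4 have no background to be set against.

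In SHR rats the differences of 6 minus 4 weeks with the smallest p were those of Vcam1, 1.15 (95% interval 0.61 to 1.69, limma adjusted p = 0.075), and Lcn2, 1.22 (95% interval 0.61 to 1.82, limma adjusted p = 0.0855). Spp1 gave 0.94 (limma adjusted p = 0.13) and Clu 0.76 (limma adjusted p = 0.164). In Dahl rats the differences of these genes were smaller in value, at 0.63 for Vcam1, 0.64 for Lcn2, 0.62 for Spp1 and 0.55 for Clu (limma adjusted p = 0.495, 0.536, 0.529 and 0.539). Icam1 gave 0.39 in Dahl rats and 0.36 in SHR rats. Cldn1 ran in opposite directions, at −0.33 in Dahl rats and 0.34 in SHR rats, and neither value passed. The opposite directions held in 1 of 3 Cldn1 probe sets, since the others gave −0.28 and −0.27 in Dahl rats and −0.22 and −0.32 in SHR rats.

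**Figure D4:**
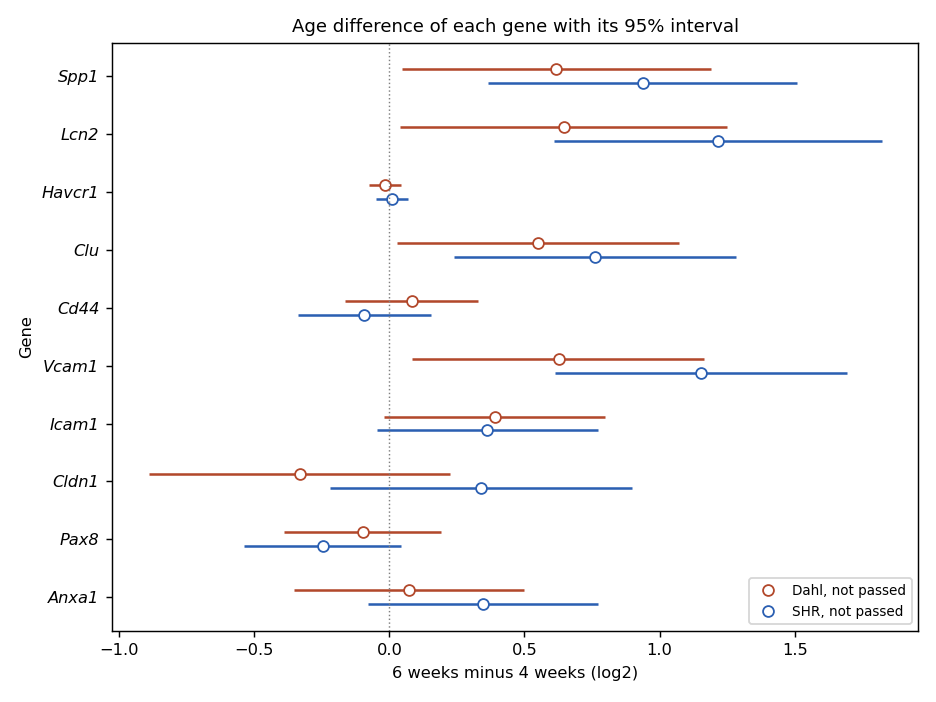
Difference of 6 minus 4 weeks (log2, horizontal axis) of the main probe set of each gene in Dahl and in SHR rats; lines are 95% intervals, and open points did not pass a limma adjusted p under 0.05. No gene passed, and Vcam1 and Lcn2 in SHR rats lie farthest to the right, at 1.15 and 1.22.

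The interaction, which is how much the strain difference grew with age, passed for 0 of 10 genes (0 at an unadjusted p under 0.05), where 0.71% of genes passed. Its estimate was −0.57 for Lcn2 (95% interval −1.43 to 0.29, limma adjusted p = 0.691), −0.53 for Vcam1 (−1.29 to 0.24, limma adjusted p = 0.671) and −0.67 for Cldn1 (−1.46 to 0.12, limma adjusted p = 0.547). The other 2 Cldn1 probe sets gave interactions of −0.059 and 0.051. For Spp1 it was −0.32 (−1.13 to 0.49) and for Icam1 0.03 (−0.55 to 0.61). These intervals span changes of over 1 log2 unit, so a strain difference that narrowed or held with age could not be separated with 2 rats per group.

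The order of the group means also differed between members. Spp1, Clu, Icam1 and Anxa1 ran Dahl 6 weeks, Dahl 4 weeks, SHR 6 weeks and SHR 4 weeks from high to low, and Lcn2 did so too. In Vcam1 Dahl 4 weeks, at 7.81 ± 0.256, lay below SHR 6 weeks, at 8.01 ± 0.274 (SD, n = 2 each), and the rats overlapped. The neighbours Dahl 4 weeks and SHR 6 weeks of Lcn2, at 8.56 ± 0.0688 and 8.44 ± 0.163, overlapped as well.

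Across the 8 arrays the 6 genes that passed tracked each other, with Pearson's r of 0.83 for Spp1 with Vcam1 up to 0.968 for Lcn2 with Clu. These coefficients are descriptions over arrays that share strain and age, and the 6 genes were picked for a strain difference in the same arrays. Over 2776 genes with a mean of at least 6 and an SD of at least 0.3, the nearest to Spp1 were Sema6a (r = 0.997), Ifgga2l1 (0.995) and Cdc42ep3 (0.994), and to Lcn2 Casp4 (0.995), Cmpk2 (0.994) and Ptn (0.992). The nearest to Clu were S1pr1, Ptprv and Gcnt2 (0.9925, 0.9919 and 0.9915), and to Icam1 Cd47 (0.996), Parvb (0.994) and C2cd2 (0.990). Vcam1 had Bmp2 (0.983), Rnf114 (0.981) and Gmfg (0.979), Anxa1 had Ptpro (0.990), Plat (0.990) and Kif5b (0.988), and Cldn1 had Septin10 (0.965), Mex3d (0.955) and Tubb6 (0.953). Pax8, Cd44 and Havcr1 varied too little or were too dim for this measure.

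Ligands, receptors and partners of the 10 genes were measured for 17 of 23 listed genes. Of these, 6 were higher and 1 lower in Dahl rats over both ages (median 0.311). Among all genes 13.2% were higher and 21.2% lower. Pla2g4a, the cytosolic phospholipase A2 that annexin A1 can inhibit, was higher by 1.29 (limma adjusted p = 0.00753). Its level was 8.76, 8.72, 8.74 and 8.84 in the Dahl rats, against 6.95, 6.81, 8.31 and 7.84 in the SHR rats, 4 weeks before 6 weeks. It stood level in all Dahl rats, and in SHR rats it was higher at 6 than at 4 weeks by 1.19 (limma adjusted p = 0.0398).

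Itgb1 and Itga9, the chains of an integrin that binds osteopontin and VCAM-1, were higher in Dahl rats by 0.48 (limma adjusted p = 0.0143) and 1.10 (limma adjusted p = 0.0147). Vldlr, a lipoprotein receptor that binds clusterin, was higher by 0.58 (limma adjusted p = 0.0322). Itgb2, the beta chain of the leukocyte integrins that bind ICAM-1, and S100a11, an annexin A1 partner, also passed. Itgb2 was dim in SHR rats of 4 weeks, at 2.59 and 2.06, and stood at 4.90 in both SHR rats of 6 weeks. The gene lower in Dahl rats, Has2, a hyaluronan synthase, differed by −0.083 at levels of 2.23 to 2.37, where little signal was present. At 4 weeks 6 of the 17 were higher (7.88% of all genes) and at 6 weeks 0 were (1.62% of all genes).

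Of 29 measured genes from a list of 30 other injury and repair genes, 9 were higher and 5 lower in Dahl rats over both ages (median 0.0618). The shares over all genes were 13.2% higher and 21.2% lower. The highest-ranked were Cst3, encoding the protease inhibitor cystatin C, higher by 1.25 (limma adjusted p = 0.00358), and Cp, encoding the copper carrier ceruloplasmin, higher by 1.20 (limma adjusted p = 0.00658). B2m, the light chain of MHC class I, was higher by 0.42 (limma adjusted p = 0.00871) and the transcription factor gene Sox4 by 1.13 (limma adjusted p = 0.00976). The others that passed as higher were Timp1, Plaur, Vim, Lgals3 and Ccn1.

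Lower in Dahl rats were Il18, an epithelial and macrophage cytokine (difference −1.87, limma adjusted p = 0.0148), and Plin2, a lipid droplet protein (difference −1.18, limma adjusted p = 0.0135). Il18 measured 7.84, 8.85, 9.45 and 10.02 in the Dahl rats, against 10.90, 10.72, 11.05 and 10.97 in the SHR rats. All Dahl rats lay below all SHR rats, on the opposite side from Spp1, and the Dahl rats of 6 weeks were the nearer to SHR (interaction 1.19, limma adjusted p = 0.539). Krt20, Mmp7 and Il24 were also lower, and all 3 were dim. At 6 weeks 2 of 29 passed, Cst3 and Cp, both higher, where 1.62% of all genes were higher.

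Relatives of the 10 genes gave 5 higher and 3 lower of 21 measured, with a median of 0.007, where 13.2% and 21.2% of all genes were. Among other annexins, Anxa5 was higher by 0.59 (limma adjusted p = 0.0192), Anxa3 by 0.99 (limma adjusted p = 0.02) and Anxa2 by 0.66 (limma adjusted p = 0.0239), and Anxa7 passed too. Icam2, an endothelial relative of Icam1, was higher by 0.76 (limma adjusted p = 0.0132). Cldn2, the claudin of leaky proximal tubule junctions, was lower (difference −0.75, limma adjusted p = 0.0333), while Cldn1 did not pass. Madcam1 and Sele were lower at dim levels.

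Markers of several cell types differed along with these genes, and their part in the results was not tested. A score, the median deviation of a list's genes from their own means, was taken in each array. Proximal tubule scores were 0.159 and −0.024 in Dahl rats of 4 weeks and −0.162 and −1.82 in Dahl rats of 6 weeks, against 0.656 and 0.831 in SHR rats of 4 weeks and 0.239 and 0.404 in SHR rats of 6 weeks. All Dahl rats scored below all SHR rats, and Dahl 6 weeks replicate 2, the array with the highest levels of 7 members, scored lowest. Of 22 proximal tubule genes 1 was higher and 3 were lower in Dahl rats over both ages. Of 19 distal nephron and collecting duct genes 0 were higher and 7 lower. Of these 7, Pvalb and Elf5 were dim, with means of 2.518 and 2.611 and differences of −0.085 and −0.073, and Scnn1a had a mean of 3.594. Among all genes 13.2% were higher and 21.2% lower. The distal score was −1.11 to 0.166 in Dahl rats and −0.057 to 0.738 in SHR rats, which overlapped.

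Glomerular cell lists ran the other way. Podocyte genes were higher in 7 of 15 and lower in 0, and endothelial genes in 9 of 15 and 0. Mesangial and smooth muscle genes were higher in 10 of 15 and lower in 0. Among all genes 13.2% were higher and 21.2% lower. Among genes brighter than the median probe set these shares were 19.1% and 12.9%. The mesangial and smooth muscle score was 0.172 to 0.540 in Dahl rats and −0.613 to −0.101 in SHR rats, so the strains did not overlap. The podocyte score was −0.033 to 0.454 in Dahl rats and −0.353 to −0.036 in SHR rats. The endothelial score was −0.032 to 0.688 in Dahl rats and −0.443 to −0.118 in SHR rats. Parietal epithelium genes, which include Cldn1, Pax8 and Cd44, were higher in 3 of 14 and lower in 2, with a median difference of 0.0475.

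**Figure D5:**
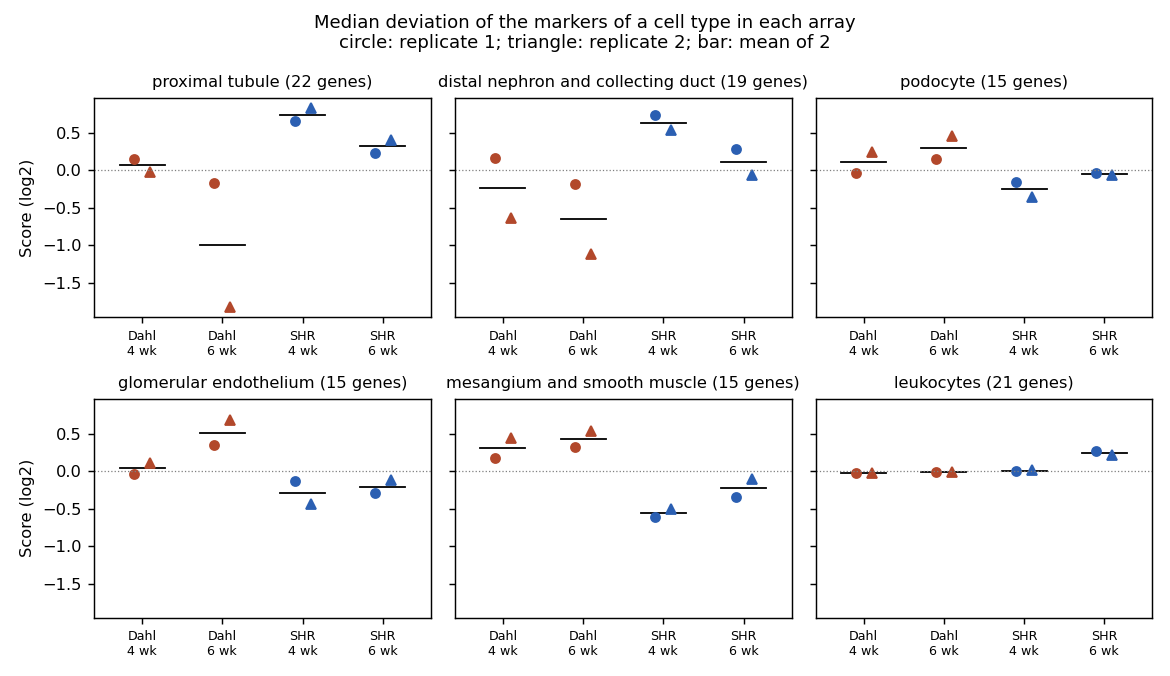
Score of each cell type list (log2, vertical axis; median deviation of its genes from their means over 8 arrays) in the 4 groups; a circle or triangle is 1 rat (replicate 1 or 2) and a bar is the mean of both. Proximal tubule scores are lower in all Dahl than in all SHR rats, with Dahl 6 weeks replicate 2 at −1.82, and mesangial and smooth muscle scores are higher in all Dahl rats.

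Leukocyte genes were higher in 8 of 21 and lower in 6 in Dahl rats over both ages. Over all genes the shares were 13.2% and 21.2%. Of the 6 lower, all but Mrc1 were dim, with means of 2.202 (Cd79b) to 3.505 (Cd3e). The 8 higher had means of 3.742 (Cd68) to 8.504 (Fcer1g). In SHR rats 5 of 21 were higher at 6 than at 4 weeks, where 2.35% of all genes were. The list score, a median over genes many of which were dim, was −0.024 to −0.012 in Dahl rats and 0.006 to 0.274 in SHR rats. Ptprc, which encodes the leukocyte antigen CD45, measured 6.33, 6.62, 6.99 and 7.45 in the Dahl rats, against 4.69, 4.35, 6.86 and 6.68 in the SHR rats, 4 weeks before 6 weeks. The SHR rats of 4 weeks stood apart as low, as they did for Vcam1 and Lcn2. The macrophage gene Aif1 showed the same order of groups, at 6.97, 6.60, 7.70 and 8.27 in the Dahl rats against 3.88, 3.57, 7.41 and 7.07 in the SHR rats. The difference of 6 minus 4 weeks in SHR rats was 2.25 for Ptprc (limma adjusted p = 0.0204) and 3.51 for Aif1 (limma adjusted p = 0.013). Not all leukocyte genes ran this way. The macrophage mannose receptor gene Mrc1 was at 5.64, 4.97, 4.63 and 5.23 in the Dahl rats, against 7.11, 7.27, 6.51 and 6.63 in the SHR rats, and was lower in Dahl rats (difference −1.76, limma adjusted p = 0.0106).

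Of 3 erythroid genes 0 were higher and 1 was lower in Dahl rats, Slc4a1, which collecting duct cells also express. Hbb, a globin gene, measured 9.60, 10.20, 9.54 and 11.53 in the Dahl rats, against 6.85, 7.57, 11.02 and 9.93 in the SHR rats, 4 weeks before 6 weeks. The SHR rats of 4 weeks were the low ones here as in Vcam1, Lcn2 and Ptprc, and the difference of 2.69 at 4 weeks did not pass (limma adjusted p = 0.0883). The part of erythroid RNA in the results was not tested.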

How the data were processed

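Glomerular RNA was hybridised to 8 Affymetrix Rat Genome arrays, each taken here as 1 rat. The deposited values are log2 intensities per probe set, which the authors had corrected for background, normalized and summarized. Their notes name RMA and GCRMA without versions, and the sources used here do not settle which was applied. The values entered the fits as deposited.

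The file has 31099 probe sets, of which 31042 were tested and 57 are controls. A single gene was annotated to 20826 and several to 436, and 9780 had none listed. Fits used limma 3.58.1 in R 4.3.3: 4 group means, empirical Bayes with 4 residual degrees of freedom, and Benjamini-Hochberg adjustment over all probe sets (threshold 0.05). The code was checked on simulated data with independent probe sets, few of them changed, and no shift shared by a strain or array. That check does not cover such shifts in the real arrays. Intervals are 95% intervals of the fit, not adjusted for the number of genes. Array number limits the precision.

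The 10 members, the gene lists and the tests were chosen with earlier results of these data known, so no list is independent evidence. Named in the text are the 10 members, up to 4 genes with the smallest p per pathway list and direction, and the 3 genes most like each member. Other genes named, such as Nphs1, Wt1, Slc34a1, Il24, Ptprc, Aif1, Mrc1 and Hbb, were picked with their values in view. The alternatives tried were other scaling, variance models, probe set rules, thresholds, fits without each array and a replicate block. Same-numbered rats were not shown to be paired.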

Additional observations from a re-analysis of the deposited data

Results flagged for a closer look

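Over the 4 rats of a strain, 30 sets of member values were examined for 1 rat far from the other 3, and 4 were found; chance gives about 1 in 20. None is a main probe set. The second Cd44 probe set was at 3.625 in Dahl 6 weeks replicate 2, against 2.179 to 2.404 in the other Dahl rats. The dim Clu probe set was at 2.145 in Dahl 6 weeks replicate 2 (others 2.087 to 2.095) and at 2.053 in SHR 6 weeks replicate 1 (others 2.107 to 2.113), gaps of under 0.1. The second Cldn1 probe set was at 7.17 in SHR 4 weeks replicate 2, against 6.579 to 6.665 in the other SHR rats.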

How the results depend on the processing

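The counts of passing members were 6 over both ages, 3 at 4 weeks, 1 at 6 weeks and 0 for age in either strain and the interaction, by limma; the cause of the changes below was not tested. At 4 weeks the count was 7 with an intensity trend and robust variance, 5 with arrays centred on their medians, 7 among brighter probe sets, 5 with the mean of all probe sets, 1 with only the arrays of that age, 7 at a threshold of 0.1 and 0 at 0.01. At 6 weeks those that moved were 3 with trend and robust variance, 3 among brighter probe sets, 0 with only that age, 3 at 0.1 and 0 at 0.01. Over both ages 1 passed at 0.01, and in SHR rats 3 passed for age among brighter probe sets and 2 at 0.1. The brighter probe sets leave out Havcr1 and Cd44, and the methods' t-test was not run for the interaction. At its own unadjusted threshold the methods' t-test called 7 members for the ages combined, 5 for 4 weeks and 3 for 6 weeks. Of all 31042 probe sets it called 15388, 9750 and 9192 at that threshold. After a Benjamini-Hochberg adjustment added here, it called 5 (4 higher, and Havcr1 lower), 0 and 0 members, and 12019, 0 and 4 of all probe sets. Over both ages 8 members passed with trend and robust variance and 8 with median centring, 7 of them higher, and 7 passed among brighter probe sets. Cldn1 was gained as higher in all 3 (limma adjusted p = 0.0308, 0.0407 and 0.0341), and Havcr1 as lower in the first 2 (0.0403 and 0.0436). With trend and robust variance or with median centring the number of probe sets called rose with the members. Over both ages it was 15164 and 15891, against 10787, and at 4 weeks 10134 and 4546, against 3738. With quantile normalization it fell to 4740 over both ages, while 6 members passed. Without each array in turn the counts were 1 to 8 over both ages, 1 to 4 at 4 weeks, 0 to 3 at 6 weeks and 0 to 1 for age in SHR rats.

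With the replicate number as a block, 4 members passed over both ages and 1 at 4 weeks, and over both ages Vcam1 (limma adjusted p = 0.0582) and Anxa1 (0.0588) were lost. Correlations of same-numbered deviations between groups ran from −0.225 to 0.236. Whether same-numbered arrays share more than a number cannot be settled from these values.

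Some directions turned, none in a member difference that passed with the settings of the report. Quantile normalization gave Havcr1 0.033, 0.047 and 0.018 over both ages, at 4 and at 6 weeks, and Pax8 −0.0097 at 6 weeks. Median centring gave Cd44 −0.037 at 4 weeks and Pax8 −0.019 at 6 weeks. The mean of all probe sets gave Pax8 0.037 over both ages and 0.10 for age in Dahl rats, Cd44 −0.10 at 4 weeks and Cldn1 −0.068 for age in SHR rats, where its main probe set gave 0.34. Without single arrays the ranges that crossed 0 were, for age in Dahl rats, Anxa1 −0.091 to 0.24 and Cd44 −0.049 to 0.21. They were, for the interaction, Icam1 −0.16 to 0.22, Clu −0.48 to 0.053 and Pax8 −0.0077 to 0.30. For the strain difference they were Cd44 −0.051 to 0.069 at 4 weeks, Cldn1 −0.0041 to 0.41 at 6 weeks, and Pax8 −0.14 to 0.17 at 6 weeks and −0.14 to 0.017 over both ages. Other member differences kept their direction in the alternatives run. Over both ages 32 single-gene results lost and 10 gained a passing p across alternatives, at 4 weeks 22 and 20, at 6 weeks 8 and 8, and for age in SHR rats 0 and 7.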
